A study of Mus musculus with 12 samples.

Results

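The genes of the mitotic apparatus were followed in C2C12 myoblasts, a mouse line that divides as single cells in growth medium and forms multinucleate myotubes on differentiation. The set was fixed by name as 50 genes of the centromere and kinetochore (17), the spindle assembly checkpoint (10), the spindle and its motors (7), cytokinesis and the chromosomal passenger complex (9), and chromosome condensation and structure (7), out of 46983 genes in the deposited table. The last group also took in Mki67 and the kinase Melk. All 50 names were found, and all 50 passed the filter on low values that 18023 genes passed. Transcript levels were given as FPKM, a fragment count scaled for both transcript length and library size.

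The study had 12 RNA-seq libraries in 4 groups of 3. WT_0d and WT_5d were C2C12 cells, labelled wild type and PbIP and called the PB-IP group after the PiggyBac vector PB-IP, harvested as undifferentiated cells (0d) or on day 5 of differentiation (5d). PPARγ/+_0d and PPARγ/+_5d were C2C12 cells with the PPARγ coding sequence inserted in the same vector, taken on the same days. The study's methods give transfection and puromycin selection for the PPARγ plasmid, and whether the WT cells went through either is not stated there. The overexpression was inducible with uninduced controls per the series' design text, inducible per the study's abstract and a stable line in its results. Which of the descriptions applies cannot be told apart here. Each group was described as biological triplicate, and whether its 3 libraries came from 1 line or from separate clones is not stated. The p-values therefore measure the spread between libraries, and cannot be taken to measure a spread between independently made lines. Depth on genes ran from 15557950 to 22013357 fragments per library, and no member had fewer than 17 fragments in any library. Counting error alone is largest for the members with the fewest fragments on 5d.

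When a cell divides, the kinetochore assembles on centromeric chromatin and binds the plus ends of spindle microtubules through the Ndc80 complex. The spindle assembly checkpoint holds the anaphase-promoting complex inactive, by sequestering its activator Cdc20, until every kinetochore is attached. Condensin and topoisomerase II compact and untangle the chromosomes, the passenger complex with Aurora B corrects faulty attachments, and the centralspindlin proteins build the midzone at which the cell is cleaved. Many of these genes are transcribed only late in the cell cycle, from promoters with a CHR element (cell cycle genes homology region, TTTGAA) and CCAAT boxes, to which the DREAM and MuvB complexes and NF-Y are known to bind. Myoblasts leave the cell cycle before they fuse, and the nuclei of myotubes do not divide.

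Promoter sequences of 43 of the 50 members could be matched in RefSeq (build GRCm38.p6), as windows from 250 bases before to 50 after the annotated start. The sequences of Aurkb, Incenp, Kif20a, Smc4, Spc24, Tpx2 and Zwilch were not matched. The printed stretches are 5′ to 3′ on the strand of the gene, with capitals for each match to TTTGAA (or TTCAAA on the other strand) and CCAAT (or ATTGG on the other strand), and the matches printed do not overlap. Cdc20, Kif11, Top2a, Ncapg and Mki67 are shown because they carry a CHR match and span the checkpoint, the spindle and the chromosomes, and Mad2l1 because its window held none.
Cdc20, chr4:118437353-118437462, minus strand: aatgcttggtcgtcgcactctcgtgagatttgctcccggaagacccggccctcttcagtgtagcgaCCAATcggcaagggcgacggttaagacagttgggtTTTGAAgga
Kif11, chr19:37376262-37376381, plus strand: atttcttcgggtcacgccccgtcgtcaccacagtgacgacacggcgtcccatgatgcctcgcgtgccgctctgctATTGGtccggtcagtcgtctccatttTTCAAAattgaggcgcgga
Top2a, chr11:99024190-99024309, minus strand: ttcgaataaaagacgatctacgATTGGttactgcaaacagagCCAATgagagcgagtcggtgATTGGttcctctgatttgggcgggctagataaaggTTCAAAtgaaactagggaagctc
Ncapg, chr5:45669799-45669918, plus strand: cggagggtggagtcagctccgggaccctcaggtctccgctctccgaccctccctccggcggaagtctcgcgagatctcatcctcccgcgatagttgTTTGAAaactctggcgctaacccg
Mki67, chr7:135716380-135716579, minus strand: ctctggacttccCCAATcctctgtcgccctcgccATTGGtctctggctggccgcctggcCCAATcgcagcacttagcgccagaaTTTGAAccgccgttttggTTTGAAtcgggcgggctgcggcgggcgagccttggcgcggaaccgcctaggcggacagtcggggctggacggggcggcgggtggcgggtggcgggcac
Mad2l1, chr6:66535101-66535220, plus strand: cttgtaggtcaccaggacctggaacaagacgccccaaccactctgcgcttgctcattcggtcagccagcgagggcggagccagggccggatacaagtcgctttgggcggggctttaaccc

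In Cdc20, Kif11, Top2a and Ncapg the CHR match printed began 18, 19, 23 and 30 bases before the start of transcription, and the Top2a window held another that began 179 bases before it. The Mki67 window also held 2 matches, which began 116 and 98 bases before the start, with 3 CCAAT boxes further upstream. Across the members, TTTGAA on either strand was found in the windows of 27 of 43 genes (62.8%), against 20.2% of 26994 genes. CCAAT was found in 30 of 43 (69.8%, against 41.0% of all genes) and both together in 23 (53.5%, against 8.0%). The E2F site, searched on both strands as TTTCCCGC, TTTCGCGC, TTTGCCGC and TTTGGCGC, was in the windows of 3 members, Cenpl, Cenpm and Ncapg (7.0%, against 2.6%). A match was counted for a gene if any of its annotated starts had one. In the last 100 bases before the start alone, TTTGAA was found in 12 of 43 members (27.9%, against 6.8% of all genes). CCAAT was found there in 23 (53.5%, against 21.6%) and both together in 9 (20.9%, against 1.3%). In some members, such as Aurka and Plk1, the only TTTGAA match lay after the start. These matches are descriptions of letters and not of bound sites.

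The level of the vector-borne gene was checked first. Pparg stood at 6.53 ± 1.27 FPKM (SD, n = 3) in WT_0d and 39.6 ± 10.1 in PPARγ/+_0d, and at 3.75 ± 0.76 in WT_5d and 58.9 ± 29.3 in PPARγ/+_5d. It was higher in PPARγ/+ cells on both days, by 2.57 and 3.85 on the log2 scale, and reads of the inserted coding sequence and of the endogenous gene were not separated. Myog, the myogenic factor that opens terminal differentiation, was 1 of 8 muscle markers read. Its level was 2.69, 15.7 and 1.47 FPKM in the WT_0d libraries and 271, 215 and 90.01 FPKM in the WT_5d libraries. In PPARγ/+ cells Myog stood at 0.603, 1.13 and 3.22 FPKM on 0d and 78.8, 85.9 and 90.3 FPKM on 5d. The 3 WT_5d libraries thus lay far apart in muscle genes, and their summed level over the 8 muscle markers ran from 932 to 3957 FPKM, against 1080 to 1265 in PPARγ/+_5d. Myf5, another of the 8, went the other way in WT cells, from 11.3 to 13.2 FPKM in WT_0d and from 3.53 to 5.96 FPKM in WT_5d. In PPARγ/+ cells it ran from 3.66 to 4.25 FPKM on 0d and from 5.58 to 8.47 FPKM on 5d. Summed levels of the 7 adipocyte markers did not exceed 0.107 FPKM in any WT library. They ran from 2.92 to 5.09 FPKM in PPARγ/+_0d and from 13.3 to 67.6 FPKM in PPARγ/+_5d. In PPARγ/+_5d 4 of the 7 had a mean of at least 1 FPKM. The 3 reserve cell markers Pax7, Cd34 and Spry1 summed to 14.9 to 26.6 FPKM in WT_0d and 46.2 to 59.4 FPKM in WT_5d. In PPARγ/+ cells they summed to 24.4 to 32.1 FPKM on 0d and 52.8 to 67.1 FPKM on 5d. The 3 endothelial markers summed to at most 0.115 FPKM in any library. Of the 4 macrophage markers only Cd68 reached 1 FPKM, and the sums of the 4 ran from 2.07 to 5.13.

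During differentiation of WT cells every one of the 50 genes fell. In WT cells all 50 were called lower on 5d (unadjusted p at most 0.05 and at least 2-fold, limma across all genes), whereas 7.53% of all genes tested were called lower in this comparison. The median change of the 50 was -3.17 on the log2 scale, against -0.08 over all genes tested, and it ran from -3.96 for Cdc20 to -1.10 for Bub3. A fall of at least 8-fold was reached by 31 of the 50 and by 0.688% of all genes, and one of at least 4-fold by 44 of the 50 and by 2.10% of all genes. In no member did a WT_5d library reach the lowest WT_0d library, which held for 30.9% of all genes. Benjamini-Hochberg adjusted p-values of the 50 from limma, taken over all genes, lay between 9.82e-05 and 0.0019.

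The same held in PPARγ/+ cells, where 49 of the 50 were called lower on 5d and the libraries of all 50 did not overlap; 6.06% of all genes were called lower and 34.4% had no overlap in that direction. The median change was -3.24, against -0.10 over all genes, from -4.08 for Cdc20 to -0.94 for Zw10. At least 8-fold lower were 34 of the 50 and 0.655% of all genes. Zw10 was the member not called, since its fall was short of 2-fold. Under median-ratio scaling the median over all genes shifted from -0.08 to 0.02 in WT and from -0.10 to 0.02 in PPARγ/+ cells. That scaling changed the called genes from 1612 higher and 1358 lower to 1838 and 1092 in WT cells, and in PPARγ/+ cells from 1642 and 1093 to 1883 and 890. In bulk libraries, fewer dividing cells and less of each transcript per cell cannot be told apart.

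**Figure D1:**
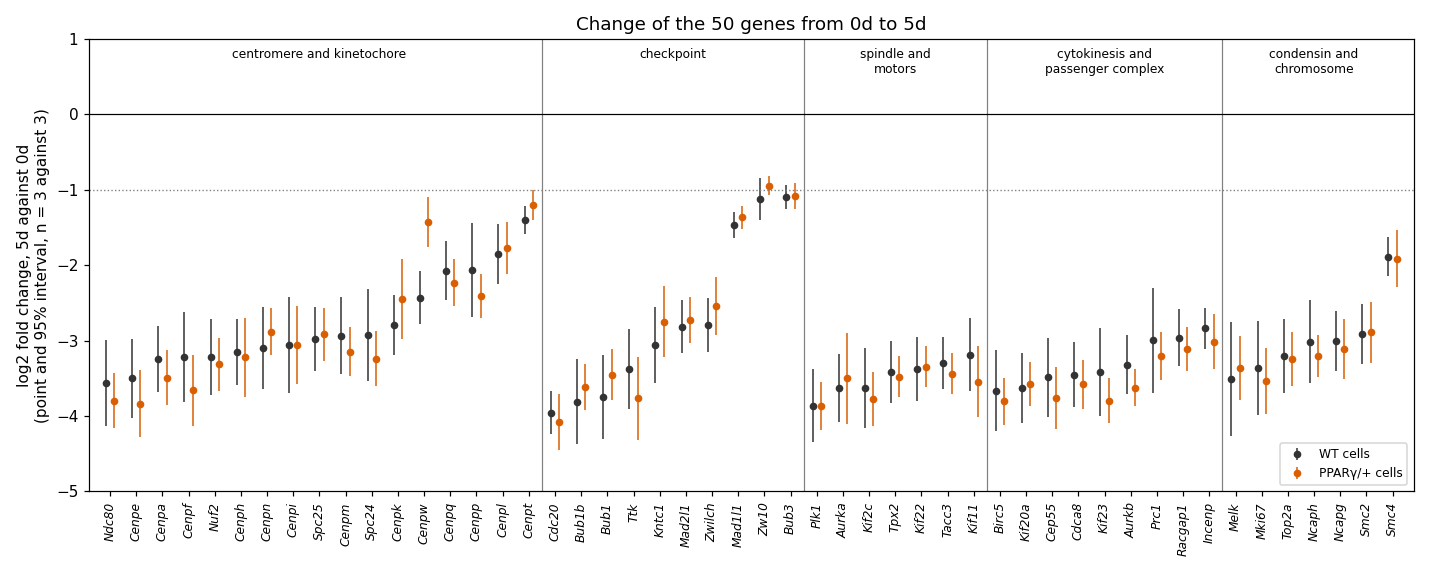
Log2 fold change from 0d to 5d of each of the 50 genes (vertical axis) in WT cells (black) and PPARγ/+ cells (orange), as points with 95% intervals from limma with 3 libraries against 3, ordered by role and by the WT value along the horizontal axis. Dotted line, 2-fold lower. The WT points run from -3.96 to -1.10, and Bub3, Zw10, Mad1l1 and Cenpt lie nearest the 2-fold line in both cell types.

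Among the centromere and kinetochore genes, 17 of 17 fell in each cell type, with medians of -2.98 in WT and -3.06 in PPARγ/+ cells. Ndc80, the microtubule-binding subunit for which the complex is named, fell most in WT cells. Its level was 24.1, 31.4 and 27.8 FPKM in the WT_0d libraries and 3.01, 2.38 and 1.58 FPKM in WT_5d, a change of -3.56 (SE 0.23, limma adjusted p = 2.55e-04). The PPARγ/+ libraries held 33.5, 24.95 and 28.5 FPKM on 0d and 1.62, 2.11 and 2.25 FPKM on 5d, a change of -3.80 (SE 0.15, limma adjusted p = 1.67e-05). Its partners Nuf2, Spc24 and Spc25 changed by -3.22, -2.92 and -2.98 in WT cells and by -3.31, -3.24 and -2.92 in PPARγ/+ cells. The 4 subunits kept levels within 2.27-fold of each other in WT_0d and within 1.88-fold in WT_5d. The motor Cenpe, which carries chromosomes to the plate, changed by -3.50 and -3.84, and was the kinetochore gene that fell most in PPARγ/+ cells.

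Cenpa, the histone H3 variant that marks the centromere, stood at 14.3, 19.6 and 16.5 FPKM in WT_0d and 1.98, 1.77 and 1.33 FPKM in WT_5d. In PPARγ/+ cells it stood at 21.9, 14.7 and 17.01 and 1.63, 1.47 and 1.34 FPKM. The changes were -3.24 (SE 0.18, limma adjusted p = 1.99e-04) and -3.49 (SE 0.15, limma adjusted p = 2.21e-05). Members of the constitutive centromere-associated network, which sits on centromeric chromatin throughout the cell cycle, did not fall equally. Cenph, Cenpi, Cenpm and Cenpn changed by -3.15, -3.06, -2.94 and -3.10 in WT cells, Cenpk, Cenpp and Cenpq by -2.79, -2.06 and -2.07, and Cenpl by -1.85. In PPARγ/+ cells the same 8 ran from -3.22 for Cenph to -1.77 for Cenpl.

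Cenpt, which links the centromere to the Ndc80 complex, fell least of the 17 in both cell types. It stood at 22.9, 22.2 and 22.9 FPKM in WT_0d and 7.93, 9.12 and 8.52 FPKM in WT_5d, a change of -1.40 (SE 0.077, limma adjusted p = 1.91e-04). The PPARγ/+ libraries gave 21.2, 19.5 and 19.7 FPKM on 0d and 8.27, 8.11 and 9.72 FPKM on 5d, a change of -1.21 (SE 0.083, limma adjusted p = 8.66e-05). The share of the 0d level left on 5d was 37.6% in WT and 43.2% in PPARγ/+ cells. Its histone-fold partner Cenpw is described below with the comparison of the cell types.

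The 10 checkpoint genes held both the member that fell most and the members that fell least. Cdc20, the activator of the anaphase-promoting complex that the checkpoint holds back, was the most abundant of the 50 on 0d. It stood at 94.3, 121 and 101 FPKM in WT_0d and 7.42, 6.35 and 6.28 FPKM in WT_5d, and at 137, 96.3 and 108 and 5.58, 6.697 and 7.61 FPKM in PPARγ/+ cells. The changes were -3.96 (SE 0.12, limma adjusted p = 9.82e-05) and -4.08 (SE 0.16, limma adjusted p = 1.61e-05), which left 6.34% and 5.83% of the 0d level. Bub1b, the BubR1 subunit of the mitotic checkpoint complex, went from 25.2, 33.7 and 30.1 to 2.64, 2.17 and 1.41 FPKM in WT cells and from 29.03, 21.2 and 25.4 to 1.76, 2.002 and 2.09 FPKM in PPARγ/+ cells. Its changes were -3.81 (SE 0.23, limma adjusted p = 2.29e-04) and -3.62 (SE 0.13, limma adjusted p = 1.53e-05). The kinases Bub1 and Ttk, which load the checkpoint proteins, changed by -3.75 and -3.38 in WT cells and by -3.45 and -3.76 in PPARγ/+ cells.

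Mad2l1, the Mad2 protein that binds Cdc20, stood at 7.96, 9.37 and 10.4 FPKM in WT_0d and 1.27, 1.33 and 1.07 FPKM in WT_5d, and at 9.705, 7.08 and 8.23 and 1.22, 1.15 and 1.12 FPKM in PPARγ/+ cells. Changes of -2.82 (SE 0.14, limma adjusted p = 1.74e-04) and -2.73 (SE 0.13, limma adjusted p = 2.51e-05) were smaller than the medians of the 50, which were -3.17 and -3.24. The Mad2l1 promoter window held none of the motifs searched. It ended at base 66535270 of chromosome 6, before the start of the gene in the GENCODE M21 annotation (66535390). Windows of some other members held none either. Among these, Birc5 and Melk fell further in WT cells (-3.66 and -3.51), and Cenpt less (-1.40). The kinetochore receptor of Mad2, Mad1l1, fell less than Mad2l1, by 1.47 and 1.37 on the log2 scale.

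Bub3, a WD40 protein that carries both Bub kinases to the kinetochore, fell least in WT cells. Its level was 51.1, 54.8 and 53.2 FPKM in WT_0d and 24.1, 25.4 and 24.7 FPKM in WT_5d, a change of -1.10 (SE 0.064, limma adjusted p = 2.13e-04). In the PPARγ/+ libraries it was 53.6, 50.4 and 50.9 FPKM on 0d and 22.1, 24.8 and 26.1 FPKM on 5d, a change of -1.09 (SE 0.072, limma adjusted p = 7.58e-05). On 5d Bub3 was the most abundant of the 50 in both cell types, in place of Cdc20.

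Zw10, which also serves in membrane traffic between the Golgi and the endoplasmic reticulum, stood at 9.63, 10.1 and 11.5 FPKM in WT_0d and 4.38, 4.53 and 5.34 FPKM in WT_5d. The change was -1.12 (SE 0.11, limma adjusted p = 9.38e-04). In PPARγ/+ cells the levels were 10.4, 10.5 and 10.2 FPKM and 5.25, 5.48 and 5.298 FPKM, a change of -0.94 (SE 0.055, limma adjusted p = 4.99e-05). The libraries of the days did not overlap in either cell type, and the PPARγ/+ value missed only the 2-fold minimum. Kntc1 and Zwilch, with which Zw10 forms the RZZ complex at unattached kinetochores, fell further, by 3.06 and 2.79 in WT cells and by 2.75 and 2.54 in PPARγ/+ cells. The ratio of Zw10 to Kntc1 in FPKM accordingly went from 1.45 ± 0.13 in WT_0d to 6.40 ± 2.28 in WT_5d, and from 1.81 ± 0.51 to 6.78 ± 0.66 in PPARγ/+ cells (SD, n = 3).

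**Figure D2:**
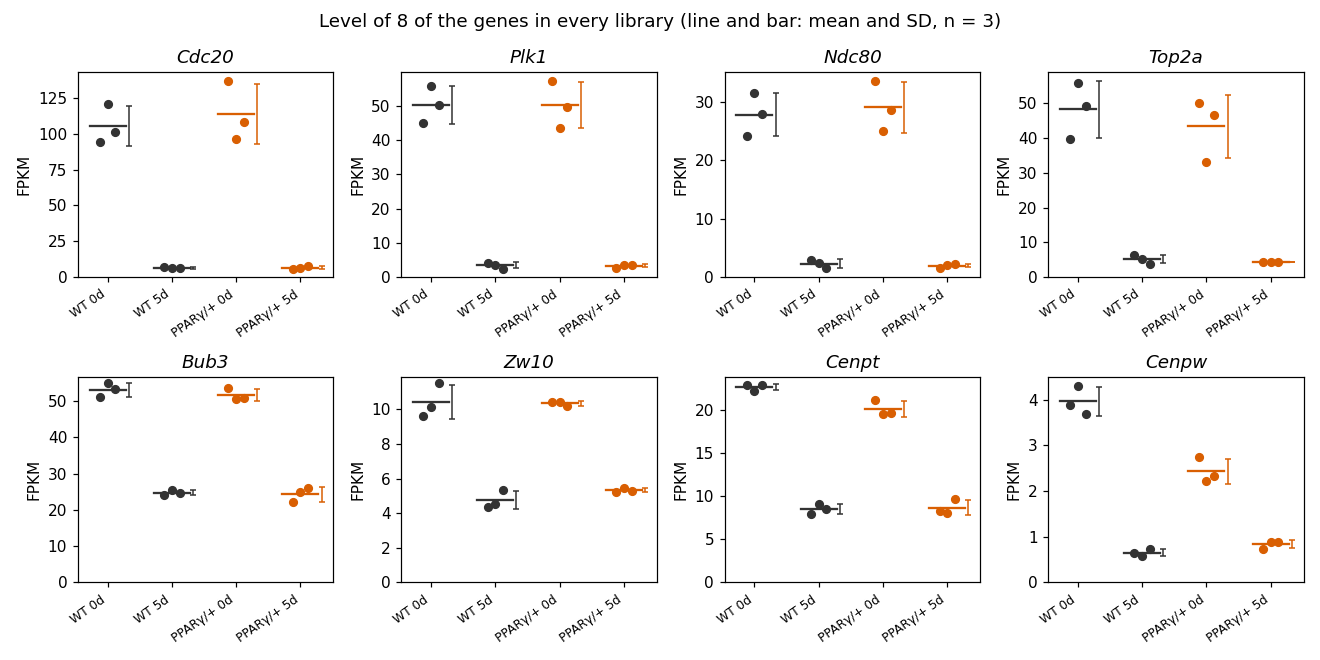
FPKM in each of the 12 libraries (points) with the group mean (line) and SD (bar, n = 3) for 8 genes, on linear axes that start at 0, WT in black and PPARγ/+ in orange. Cdc20, Plk1, Ndc80 and Top2a drop to low levels on 5d, Bub3, Zw10 and Cenpt keep from 37.6% to 51.5% of the 0d level, and Cenpw shows lower PPARγ/+ libraries on 0d.

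All 7 spindle and motor genes fell at least 8-fold in each cell type, with medians of -3.42 and -3.50. Plk1, the Polo kinase that drives mitotic entry and spindle assembly, stood at 44.9, 55.9 and 50.3 FPKM in WT_0d and 4.16, 3.7 and 2.46 FPKM in WT_5d, and at 57.2, 43.6 and 49.8 and 2.81, 3.62 and 3.598 FPKM in PPARγ/+ cells. It changed by -3.86 (SE 0.20, limma adjusted p = 1.74e-04) and -3.87 (SE 0.13, limma adjusted p = 1.53e-05). Kif11, the Eg5 motor that pushes the spindle poles apart, went from 21.7, 31.4 and 27.4 to 3.45, 2.96 and 2.21 FPKM in WT cells and from 36.6, 21.9 and 30.2 to 2.05, 2.75 and 2.41 FPKM in PPARγ/+ cells. The changes were -3.19 (SE 0.20, limma adjusted p = 2.32e-04) and -3.54 (SE 0.20, limma adjusted p = 4.20e-05). Aurka with its activator Tpx2 and its partner Tacc3, the depolymerase Kif2c and the chromokinesin Kif22 changed by -3.63, -3.42, -3.30, -3.63 and -3.37 in WT cells. In PPARγ/+ cells the same 5 changed by -3.50, -3.48, -3.44, -3.77 and -3.34.

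The 9 genes of cytokinesis and the passenger complex also fell in both cell types, with medians of -3.42 and -3.58. Birc5 (survivin) stood at 24.6, 33.9 and 31.7 FPKM in WT_0d and 2.67, 2.68 and 1.61 FPKM in WT_5d, and at 35.5, 25.4 and 29.1 and 1.999, 1.87 and 2.23 FPKM in PPARγ/+ cells. It changed by -3.66 (SE 0.22, limma adjusted p = 2.28e-04) and -3.81 (SE 0.13, limma adjusted p = 1.53e-05), the furthest of the 9 in each cell type. Aurkb, the kinase of the complex, went from 19.8, 24.6 and 22.3 to 2.599, 2.15 and 1.73 FPKM in WT cells and from 22.4, 18.7 and 21.8 to 1.51, 1.53 and 1.79 FPKM in PPARγ/+ cells. The changes were -3.32 (SE 0.16, limma adjusted p = 1.74e-04) and -3.62 (SE 0.10, limma adjusted p = 1.38e-05). The scaffold Incenp fell least of the 9. It stood at 42.8, 54.5 and 48.5 FPKM in WT_0d and 6.83, 7.18 and 6.09 FPKM in WT_5d, and at 59.02, 40.8 and 52.1 and 5.41, 6.94 and 6.06 FPKM in PPARγ/+ cells, with changes of -2.84 (SE 0.11, limma adjusted p = 1.63e-04) and -3.01 (SE 0.15, limma adjusted p = 3.03e-05). Cdca8 (borealin), the fourth subunit, was the least abundant, and Incenp stood 3.08-fold above it in WT_0d and 4.89-fold above it in WT_5d.

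Prc1, which bundles the microtubules of the midzone, stood at 12.7, 17.3 and 13.8 FPKM in WT_0d and 2.36, 2.01 and 1.07 FPKM in WT_5d, and at 16.2, 12.003 and 14.96 and 1.296, 1.51 and 1.597 FPKM in PPARγ/+ cells. It changed by -2.999 (SE 0.29, limma adjusted p = 7.90e-04) and -3.20 (SE 0.13, limma adjusted p = 1.92e-05). The centralspindlin subunits Kif23 and Racgap1 changed by -3.42 and -2.96 in WT cells and by -3.80 and -3.11 in PPARγ/+ cells, and Kif20a and Cep55, which act at the midzone and in abscission, by -3.63 and -3.49 and by -3.58 and -3.76. The libraries were made with a kit that does not mark strand, so reads of a gene and of an overlapping gene on the other strand could not be separated. Exons of the other strand covered 29.3% of the exonic length of Kif20a (Cdc23), 13.4% of Ncapg (Lcorl), 12.3% of Cenpp (Ippk), 11.1% of Prc1 (Rccd1), 8.14% of Tacc3 (Tmem129) and 7.09% of Plk1 (Gm44985). These shares use exonic lengths of GENCODE M21. For Kif20a and Cenpp that length did not give whole fragment counts, so the share may differ in the gene models behind their FPKM.

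The 7 genes of condensation and chromosome structure, with Melk counted among them, fell with medians of -3.01 and -3.20. Top2a, the topoisomerase that untangles sister chromatids, stood at 39.7, 55.9 and 49.1 FPKM in WT_0d and 6.35, 5.301 and 3.94 FPKM in WT_5d, and at 50.1, 33.2 and 46.8 and 4.44, 4.42 and 4.42 FPKM in PPARγ/+ cells. It changed by -3.20 (SE 0.20, limma adjusted p = 2.32e-04) and -3.24 (SE 0.15, limma adjusted p = 2.41e-05). Mki67, the Ki-67 coat protein of mitotic chromosomes that is used to count cycling cells, went from 39.2, 55.5 and 55.5 to 6.43, 4.89 and 3.31 FPKM in WT cells and from 59.4, 35.1 and 51.5 to 4.23, 3.97 and 3.85 FPKM in PPARγ/+ cells. The changes were -3.37 (SE 0.26, limma adjusted p = 3.79e-04) and -3.53 (SE 0.18, limma adjusted p = 3.36e-05). The kinase Melk stood at 13.9, 17.6 and 17.5 FPKM in WT_0d and 1.98, 1.52 and 0.783 FPKM in WT_5d, and at 15.2, 9.82 and 13.1 and 1.04, 1.31 and 1.05 FPKM in PPARγ/+ cells. With -3.51 (SE 0.31, limma adjusted p = 5.93e-04) it fell furthest of the 7 in WT cells, and it had the largest SE of the 50. Its change in PPARγ/+ cells was -3.36 (SE 0.18, limma adjusted p = 3.52e-05).

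The SMC subunits of condensin fell unequally. Smc2 stood at 17.5, 23.8 and 21.7 FPKM in WT_0d and 3.196, 2.67 and 2.27 FPKM in WT_5d, and at 22.7, 13.9 and 18.7 and 2.46, 2.32 and 2.28 FPKM in PPARγ/+ cells, with changes of -2.91 (SE 0.17, limma adjusted p = 2.05e-04) and -2.89 (SE 0.17, limma adjusted p = 5.16e-05). Smc4, with which it forms the ATPase core of every condensin, stood at 48.1, 62.2 and 58.4 FPKM in WT_0d and 15.3, 14.7 and 15.2 FPKM in WT_5d, and at 79.1, 49.9 and 62.8 and 17.6, 16.6 and 15.7 FPKM in PPARγ/+ cells. It changed by only -1.89 (SE 0.11, limma adjusted p = 2.01e-04) and -1.91 (SE 0.16, limma adjusted p = 1.67e-04). The ratio of Smc4 to Smc2 in FPKM was 2.69 ± 0.068 in WT_0d and 5.66 ± 0.97 in WT_5d, and 3.48 ± 0.12 and 7.08 ± 0.16 in PPARγ/+ cells (SD, n = 3). No library of 5d overlapped those of 0d in this ratio. The condensin I subunits Ncapg and Ncaph changed by -3.005 and -3.01 in WT cells and by -3.11 and -3.20 in PPARγ/+ cells.

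The level left on 5d, as the share of the mean 0d FPKM, had a median of 10.7% in WT and 9.92% in PPARγ/+ cells. It was under 15% for 41 members in WT and 39 in PPARγ/+ cells. Above 25% were 6 members in WT cells, namely Bub3 (46.6%), Zw10 (45.6%), Cenpt (37.6%), Mad1l1 (35.7%), Smc4 (26.8%) and Cenpl (25.6%). In PPARγ/+ cells the same 6 stood at 47.1%, 51.5%, 43.2%, 38.3%, 26.0% and 27.1%, and Cenpw joined them at 34.6%. Members with a CHR match had a median change of -3.22 in WT cells (n = 27, -3.96 to -1.10) and those without one of -3.04 (n = 16, -3.75 to -1.40), and both Bub3 and Zw10 had a match.

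Summed over the 50 genes, the level in WT cells was 1049, 1347 and 1235 FPKM on 0d and 182, 164 and 140.5 FPKM on 5d. In PPARγ/+ cells it was 1384, 997 and 1195 FPKM on 0d and 144, 156 and 158 FPKM on 5d. The means were 7.46-fold lower on 5d in WT and 7.80-fold lower in PPARγ/+ cells, and the share of all FPKM fell from 0.431% to 0.0601% and from 0.424% to 0.0565%. In 3 of the 4 groups most members had their highest or lowest level in the same library: WT_0d replicate 1 was the lowest of its group in 47 of the 50 genes, PPARγ/+_0d replicate 2 was the lowest in 49 and PPARγ/+_0d replicate 1 the highest in 47. In WT_5d, replicate 1 was the highest in 39 and replicate 3 the lowest in 41, and these libraries were also those with the highest and the lowest Myog (271 and 90.01 FPKM). In WT_0d, replicate 2 was the highest in 39 genes and held the highest Myog of its group (15.7 FPKM), while the lowest Myog (1.47 FPKM) was in replicate 3. In PPARγ/+_0d the order was the other way round for Myog, which was lowest in replicate 1 (0.603 FPKM) and highest in replicate 3 (3.22 FPKM). In PPARγ/+_5d no library stood out, and replicates 1, 2 and 3 were the highest in 10, 19 and 21 genes. The part of these library differences in the results was not tested.

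**Figure D3:**
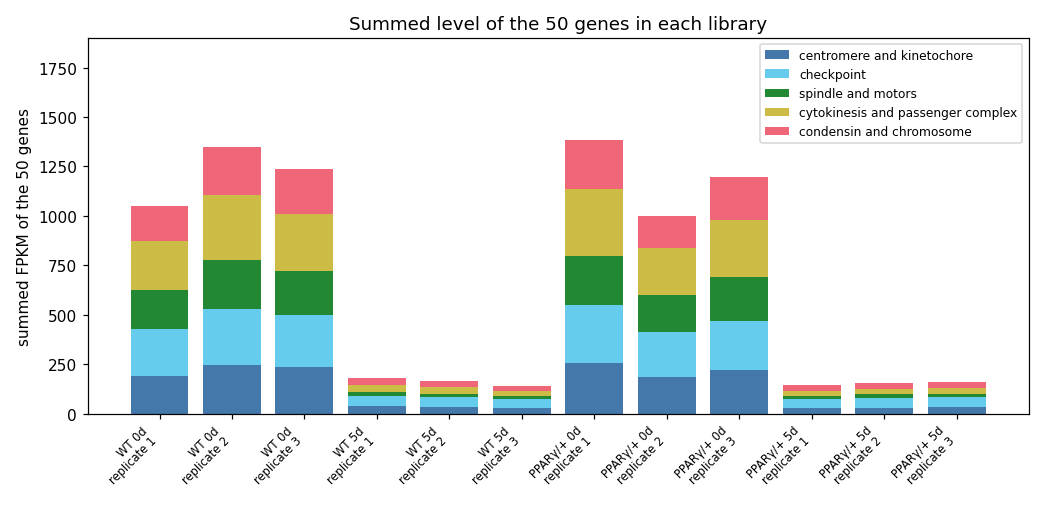
Summed FPKM of the 50 genes (vertical axis, from 0) in each of the 12 libraries (horizontal axis), stacked by role. The 0d libraries lie between 997 and 1384 and the 5d libraries between 140.5 and 182, in both cell types.

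PPARγ/+ and WT cells were compared on each day. An effect of PPARγ overexpression cannot be told apart here from other differences between the 2 kinds of cells. On 0d none of the 50 was called between the cell types (limma, adjusted p at most 0.05 and at least 2-fold), against 1.59% of all genes; 3 members had an unadjusted p under 0.05, against 21.7% of all genes, and the added fit on recovered fragments called none. The median difference of PPARγ/+ from WT was -0.05 on the log2 scale, with 36 of the 50 members negative (46.1% of all genes were), and ran from -0.69 for Cenpw to 0.17 for Smc4. The 95% intervals of all 50 lay within 2-fold in either direction. On 5d none was called either, against 0.155% of all genes, and none had an unadjusted p under 0.05, against 12.7% of all genes. Without WT_5d replicate 3, 723 genes were called on 5d in place of 28, and none of the 50 was among them. The median difference was -0.15, with 38 of the 50 negative (45.1% of all genes were), from -0.44 for Kif23 to 0.32 for Cenpw, and 48 of the 50 intervals lay within 2-fold; those of Ttk (-1.13 to 0.33) and Melk (-1.04 to 0.58) reached further. The median on 0d ran from -0.15 to 0.05 over the alternatives and was above 0 without WT_0d replicate 2 (0.03) and without PPARγ/+_0d replicate 2 (0.05), whereas that on 5d ran from -0.30 to -0.0048.

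In the proliferation genes with the most use as markers, the differences were small against their intervals. Mki67 differed by -0.06 on 0d (95% interval -0.63 to 0.51) and by -0.22 on 5d (-0.80 to 0.35). Top2a differed by -0.16 (-0.64 to 0.31) and -0.20 (-0.62 to 0.22), and Plk1 by -0.01 (-0.31 to 0.30) and -0.02 (-0.55 to 0.52). The libraries of the cell types overlapped in nearly all members. Without overlap on 0d were Cenpw, Cenpt and Mad1l1, all lower in PPARγ/+ cells, which makes 3 of the 50 against 13.1% of all genes. On 5d Cenpw and Smc4 did not overlap, both higher, which makes 2 of the 50 against 10.2% of all genes.

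**Figure D4:**
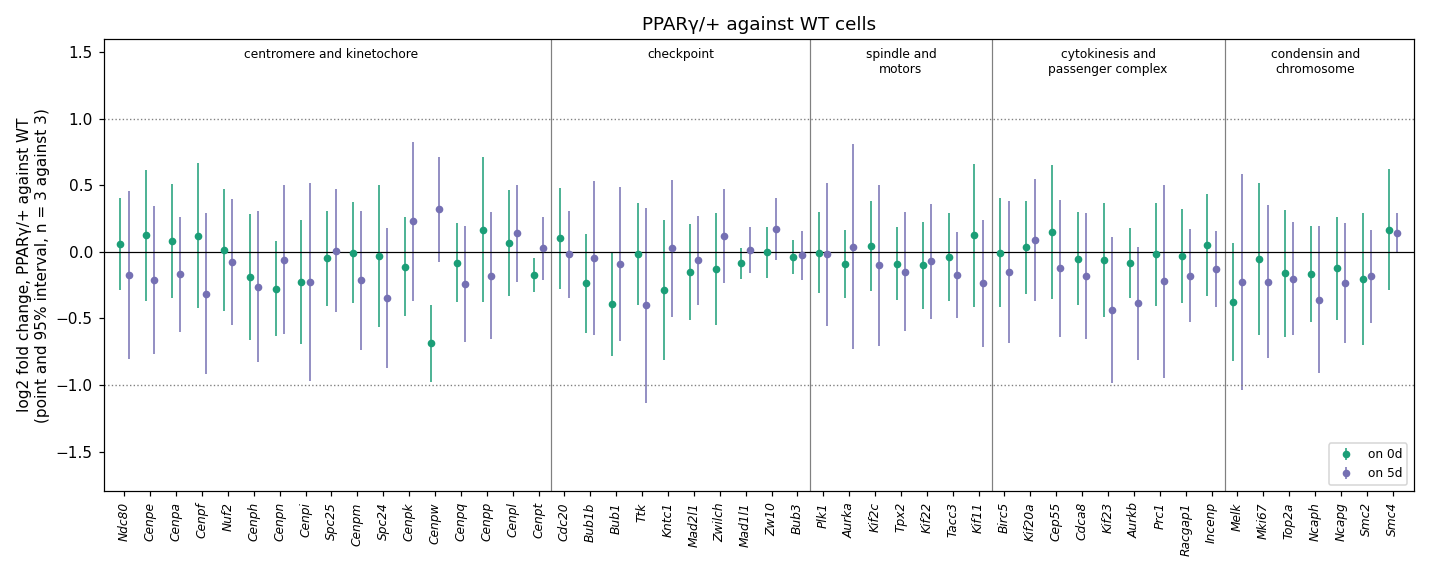
Log2 fold change of PPARγ/+ against WT cells (vertical axis) on 0d (green) and on 5d (purple) for each of the 50 genes in the order of the plot of day changes, as points with 95% intervals from limma with 3 libraries against 3. Dotted lines, 2-fold in either direction. The points lie around 0, and the Cenpw interval on 0d, from -0.97 to -0.40, lies farthest from it.

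Cenpw, which forms a histone-like tetramer with Cenpt, Cenps and Cenpx at the centromere, was the member with the largest difference on 0d. It stood at 3.89, 4.31 and 3.69 FPKM in WT_0d and 2.74, 2.21 and 2.34 FPKM in PPARγ/+_0d, so that every PPARγ/+ library lay below every WT library. The difference was -0.69 (SE 0.12, limma adjusted p = 0.0392), short of 2-fold. The limma adjusted p rose to 0.0688 with no filter on low values, to 0.194 under the replicate block and to between 0.0551 and 0.144 with any 1 library left out. On 5d it stood at 0.65, 0.583 and 0.727 FPKM in WT and 0.735, 0.893 and 0.891 FPKM in PPARγ/+ cells, a difference of 0.32 (SE 0.16, limma adjusted p = 0.456). Between the days it changed by -2.43 in WT cells (SE 0.15, limma adjusted p = 2.15e-04) and by -1.43 in PPARγ/+ cells (SE 0.14, limma adjusted p = 3.20e-04). With 12 libraries in 1 fit, the difference of these changes was 1.005 (SE 0.19, 95% interval 0.58 to 1.43, limma adjusted p = 0.0447), and Cenpw was the 1 member of 50 called in this interaction, against 0.76% of all genes. The call was lost under most alternatives, with adjusted p-values from 0.00143 to 0.131. Its level was among the lowest of the set, with 17 to 25 fragments per WT_5d library, recovered with an inferred length.

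For the other 49 members the interaction ran from -0.44 for Cenpf, a large kinetochore protein of late G2, to 0.34 for Cenpk, and none was called. Intervals within 2-fold were reached for 42 of the 50, so that for the remaining 8 a difference of 2-fold between the changes was not bounded by these libraries. The Cenpt to Cenpw ratio went from 5.75 ± 0.54 to 13.2 ± 2.13 in WT cells and from 8.33 ± 0.56 to 10.4 ± 1.17 in PPARγ/+ cells (SD, n = 3).

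A further 92 mitotic genes outside the set were counted in the same fits. Called lower from 0d to 5d were 60 of the 92 in each cell type, where the share of all genes was 7.53% (WT) and 6.06% (PPARγ/+), and none was called higher; the medians were -1.95 and -1.78. Of 26 other kinetochore and centromere genes, 21 were called lower in each cell type, with Nek2, a centrosomal kinase, at -3.54 and -3.85 and Knstrn, a spindle and kinetochore protein, at -3.46 and -3.43. Of 28 other spindle and cytokinesis genes, 27 were called lower in each, with Ube2c, the ubiquitin-conjugating enzyme of the anaphase-promoting complex, at -3.76 and -3.33 and Troap at -3.70 and -3.98. Numa1, a spindle pole protein that is also part of the interphase nucleus, was the exception at -0.13 and -0.03 (named after its values were seen). All 4 other condensin genes were called lower, with Ncapd2 at -2.84 and -2.70 and Ncapg2 at -2.39 and -2.09.

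Fewer genes of the cohesin ring and of the anaphase-promoting complex were called. Of 10 cohesin genes 2 were called lower in each cell type, the cohesion factor Cdca5 (sororin) at -3.22 and -3.20 and the kleisin Rad21 at -1.28 and -1.27. Of 15 genes of the anaphase-promoting complex and its activators outside the 50, 1 was called lower in each, a share near that of all genes, and it was Fzr1, the activator Cdh1, at -1.16 and -1.17. Of 9 regulators of mitotic transcription, 5 were called lower in each cell type, with Mybl2 (B-Myb) at -3.51 and -2.51 and Foxm1 at -3.27 and -3.31. None of the 92 was called between the cell types on 0d, on 5d or in the interaction. The shares of all genes called were 1.59%, 0.155% and 0.76%, at which few or no calls would be counted among 92 genes. The largest interaction among them was 1.002, for Mybl2, close in size to the 1.005 of Cenpw, and Mybl2 differed by -0.93 on 0d.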

How the data were processed

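Total RNA of 12 C2C12 libraries was sequenced in 4 groups of 3. Per the study's methods, reads were trimmed with Trim Galore, aligned with STAR, counted with HTSeq and tested by the authors with DESeq2; the annotation named there is Ensembl GRCm38 and the submitters' processing notes name mm9, so coordinates here are those of GENCODE M21 and RefSeq on GRCm38. The authors deposited FPKM per gene, and a log2 copy that equals log2(FPKM + 1) within 5.3e-14 and was read for this check only. The table held 0 columns of no sample.

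With limma 3.58.1 in R 4.3.3 (empirical Bayes with trend), log2(FPKM + 0.1) was fitted for the 18023 genes with at least 0.1 FPKM in at least 3 libraries; fold changes on this scale understate those of low genes. The groups of each comparison were fitted on their own 6 libraries and the interaction on all 12. Between days a gene was called at unadjusted p at most 0.05 and 2-fold, the study's thresholds, between cell types at Benjamini-Hochberg adjusted p at most 0.05 and 2-fold, and in the interaction at adjusted p at most 0.05. Genes described per library were the member of each role that moved most and least in WT cells, 14 members chosen by function, and those called between cell types, called in the interaction or not called between days. Genes of other lists were the 2 called ones that fell most in WT cells, and those that check the labels.

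Depth was recovered from FPKM, exonic length and the mapped read total of each library in the study's supplement. The annotated length gave whole fragments (tolerance 0.02) for 21320 of 27138 expressed genes. A length was inferred for 5818, Cenpw among them. The members and lists were chosen with earlier results of these data known. The scripts were tested on simulated data. Alternatives were the pseudocount, filter, scaling, thresholds, array weights, 1 fit of all libraries, a replicate block, leaving out each library, and, added after seeing the data, voom on recovered fragments. Same-numbered libraries had deviations that correlated at -0.0678 to 0.0834.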

Additional observations from a re-analysis of the deposited data

Results flagged for a closer look

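The Cenpw interaction was singled out because a test of the difference itself set its fall in WT cells apart from that in PPARγ/+ cells, by 1.005 on the log2 scale (limma over 12 libraries, adjusted p = 0.0447, and from 0.00143 to 0.131 over the alternatives). Cenpw was lower in 3 of 3 PPARγ/+_0d libraries than in any WT_0d library and higher in 3 of 3 PPARγ/+_5d libraries than in any WT_5d library. Libraries without overlap in these directions were found for 13.1% of all genes on 0d and 10.2% on 5d. The Cenpw interaction rested on 17 to 25 fragments in each WT_5d library, recovered with an inferred length.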

How the results depend on the processing

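Of 1948 values of single members recomputed under the alternatives, 1921 kept their direction and their side of the threshold. Most of these values were changes between days, far from the threshold: 44 (WT) and 43 (PPARγ/+) of the 50 members moved at least 4-fold. Values between cell types were included only for Cenpw, Bub1, Smc4, Kif23, Ttk and Melk, and the interaction only for Cenpw. The members called in WT and PPARγ/+ cells between days stayed within 48 to 50, and their medians within -3.32 to -2.61 and -3.39 to -2.71. The calls lost between days were those near 2-fold: Bub3 at -0.97 and -0.99 in WT and -0.96 and -0.96 in PPARγ/+ cells under median-ratio and quantile scaling, Zw10 in WT at -0.99 under both and with 1 added to the FPKM, and Cenpw in PPARγ/+ cells at -0.90 with 1 added. The 1 member called in the interaction, Cenpw, became 0 with 0.01 added, with no filter, under median-ratio and quantile scaling, under the replicate block and with voom on recovered fragments. Leaving out single libraries gave 0 to 1, and Cenpw was called only without WT_5d replicate 3 (adjusted p = 0.0191) and without PPARγ/+_0d replicate 1 (adjusted p = 0.05). Without a fold minimum 1 member, Cenpw, was called between the cell types on 0d. The summed FPKM without Cdc20, Smc4 and Bub3 was 995 in WT_0d, 116 in WT_5d, 963 in PPARγ/+_0d and 105 in PPARγ/+_5d. Leaving out single libraries gave sums of 1142 to 1291, 152 to 173, 1096 to 1289 and 150.3 to 157.0. It left the members called at 50 and 49 between days and at 0 between cell types, and the other mitotic genes at 59 to 60 and 58 to 61. Melk on 5d, at -0.23 between cell types, ran from -0.579 to 0.0396 with single libraries left out and changed sign only without WT_5d replicate 1. The cause of these changes was not tested.

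Replicate numbers share only a number here, and no pair of same-numbered libraries correlated over 0.1. The replicate block called 50 and 49 members between days and 0 in the interaction (Cenpw adjusted p = 0.106), and over all genes 0 on 0d, 0 on 5d, and 51 higher and 10 lower in the interaction in place of 287, 28 and 137. Over all genes, the calls ran from 0 to 675 on 0d, from 0 (replicate block) to 723 (without WT_5d replicate 3) on 5d and from 42 to 2164 in the interaction over the alternatives, and between days from 1441 to 8440 in WT and from 1241 to 9808 in PPARγ/+ cells, lowest with 1 added to the FPKM and highest with no fold minimum. With 17 fragments in WT_5d replicate 2, Cenpw had the lowest count of the set.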

Other observations

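The ratio of Smc4 to Smc2 separated the cell types as well as the days, although neither gene was called between them. It ran from 2.62 to 2.75 in the WT_0d libraries and from 3.35 to 3.60 in PPARγ/+_0d. On 5d it ran from 4.78 to 6.70 in WT and from 6.89 to 7.18 in PPARγ/+ cells. This ratio was singled out after its values were seen, and with 3 libraries against 3 it was not tested. Among the regulators of mitotic transcription, Mybl2 stood at 7.34 ± 1.3 FPKM in WT_0d and 3.81 ± 0.65 in PPARγ/+_0d, and at 0.547 ± 0.033 and 0.582 ± 0.020 on 5d (SD, n = 3), with no call between the cell types on either day.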
